A study of Homo sapiens with 37 samples.

Results

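Mitochondrial ribosomal protein genes were taken as the protein-coding genes whose symbol starts with MRPL or MRPS followed by a digit, leaving out 43 pseudogene and 6 lncRNA rows with such symbols. The UMI table held 75 of them among 32055 rows, 48 named for the large subunit (MRPL) and 27 for the small subunit (MRPS). MRPL30, MRPS24 and MRPS17 were not analysed here. The libraries came from K562, an established human erythroleukemia cell line, with 26 labelled KO and 11 labelled Control. Per the study, KO cells received Cas9 from plasmid px458 with either of a pair of gRNAs against ZBTB7A, a zinc finger transcription factor, Control cells received the plasmid without a gRNA, and single sorted cells were expanded into clones. A library is known only by the 6 bases of its well barcode. Since no clone or gRNA is given for it, several libraries may come from 1 clone, and the p-values measure only the spread between libraries. The comparison asks which genes differ in level between K562 cells with and without a disrupted ZBTB7A.

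Mitochondria carry their own ribosome, which makes the few proteins encoded in mitochondrial DNA, all of them core subunits of the respiratory chain and ATP synthase. Its RNA comes from mitochondrial DNA, but all of its proteins are encoded in the nucleus, made in the cytosol and imported. Some take the place of a bacterial ribosomal protein and others have no counterpart in the bacterial ribosome. By a list of such counterparts, 43 of the 75 genes belonged to the bacterial class and 31 to the mitochondria-specific class. MRPS36 was counted apart, since its product is now placed in the 2-oxoglutarate dehydrogenase complex.

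RNA was read by bulk SCRB-seq, which tags each captured mRNA molecule near its 3′ end with a unique molecular identifier (UMI), so that a count is a number of molecules and does not depend on transcript length. KO libraries held 1070250 to 4270901 UMIs (median 2030965) and Control libraries 563235 to 4710809 (median 3518944). KO libraries were thus shallower on the whole, and 12 of the 26 had GC-rich barcodes against 1 of the 11 Control libraries. ZBTB7A itself was at 5.27, 5.84 and 6.19 log2 CPM (lowest, median and highest Control library) and at 5.44, 5.94 and 6.41 in KO. It did not differ (log2 fold change 0.12 ± 0.09 SE, adjusted p = 0.331), and a 3′ tag does not check an edit in the coding sequence. The KO-labelled library GGCCAC stood with the Control libraries for several genes, and results that rest on it are given with and without it. Of 13 tested erythroid markers, 3 rose (SLC4A1, ALAS2 and EPOR) and 3 fell (TFRC, KLF1 and GATA1), 23.1% each way beside 17.7% and 16.2% of all genes tested by edgeR. Of 6 megakaryocyte, 7 myeloid and 5 lymphoid markers in the table, 1, 2 and 1 passed the count filter, with GP1BA and ITGAM higher and CD33 and CD3D lower. Their part in the results below was not tested. In bulk RNA, fewer cells of a type and less RNA per cell cannot be told apart.

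Promoters are shown first for the 6 members that fell in KO under every setting tried (MRPL16, MRPS33, MRPL20, MRPL12, MRPL53 and MRPS15) and, for contrast, for MRPL51, which had closely matching levels in both groups. Each run gives 250 bases before and 50 after a RefSeq start of the gene on GRCh38.p14, read 5′ to 3′ on the gene's strand, which is plus for MRPL12 and minus for the others. MRPS33 has 2 RefSeq starts. The RefSeq start of MRPL51 lies inside the gene as GENCODE draws it (chr12:6491886-6493841), whose outermost start is farther upstream. The same holds for both starts of MRPS33 (chr7:141002610-141015228). Capitals mark the letters CCGGAAGT, an ETS-type motif of the kind bound by GABPA, or AAGATGGC, the core motif of YY1, on either strand. Both factors are known regulators of nuclear genes for mitochondrial proteins.
MRPL16 (chr11:59810729-59811028): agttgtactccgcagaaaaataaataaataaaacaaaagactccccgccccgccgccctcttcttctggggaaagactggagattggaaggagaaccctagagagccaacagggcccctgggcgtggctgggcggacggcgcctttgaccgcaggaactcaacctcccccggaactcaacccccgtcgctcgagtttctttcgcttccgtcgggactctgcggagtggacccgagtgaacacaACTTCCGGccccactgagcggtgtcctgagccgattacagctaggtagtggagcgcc
MRPS33, first start (chr7:141014903-141015202): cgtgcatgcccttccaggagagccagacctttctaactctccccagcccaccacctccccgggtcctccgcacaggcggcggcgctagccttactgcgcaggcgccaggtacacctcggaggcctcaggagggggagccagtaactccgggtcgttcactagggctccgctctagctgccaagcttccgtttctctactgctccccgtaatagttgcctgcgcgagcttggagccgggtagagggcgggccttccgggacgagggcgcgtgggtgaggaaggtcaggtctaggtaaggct
MRPS33, second start (chr7:141014630-141014929): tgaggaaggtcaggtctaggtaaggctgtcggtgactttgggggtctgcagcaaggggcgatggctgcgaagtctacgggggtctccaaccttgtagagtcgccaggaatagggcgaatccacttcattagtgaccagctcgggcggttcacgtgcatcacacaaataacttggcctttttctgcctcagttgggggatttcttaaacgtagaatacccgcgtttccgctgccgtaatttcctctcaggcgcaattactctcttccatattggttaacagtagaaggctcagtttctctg
MRPL20 (chr1:1407244-1407543): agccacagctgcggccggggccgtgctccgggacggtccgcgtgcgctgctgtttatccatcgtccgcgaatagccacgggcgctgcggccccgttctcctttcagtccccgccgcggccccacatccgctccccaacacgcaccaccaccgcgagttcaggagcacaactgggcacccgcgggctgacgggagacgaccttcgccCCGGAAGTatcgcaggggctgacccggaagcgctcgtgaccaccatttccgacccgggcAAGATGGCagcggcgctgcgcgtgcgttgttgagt
MRPS15 (chr1:36464335-36464634): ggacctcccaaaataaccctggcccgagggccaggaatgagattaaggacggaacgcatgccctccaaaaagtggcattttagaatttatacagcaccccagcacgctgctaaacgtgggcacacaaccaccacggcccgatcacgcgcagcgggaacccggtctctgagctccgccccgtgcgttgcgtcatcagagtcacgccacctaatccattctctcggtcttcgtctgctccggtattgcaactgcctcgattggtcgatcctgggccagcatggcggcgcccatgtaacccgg
MRPL12 (chr17:81703117-81703416): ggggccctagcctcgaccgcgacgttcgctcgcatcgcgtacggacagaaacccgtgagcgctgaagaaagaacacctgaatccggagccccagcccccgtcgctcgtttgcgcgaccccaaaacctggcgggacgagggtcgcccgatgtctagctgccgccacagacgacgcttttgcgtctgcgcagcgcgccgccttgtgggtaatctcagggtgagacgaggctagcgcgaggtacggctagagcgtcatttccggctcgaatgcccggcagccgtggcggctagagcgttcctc
MRPL53 (chr2:74472631-74472930): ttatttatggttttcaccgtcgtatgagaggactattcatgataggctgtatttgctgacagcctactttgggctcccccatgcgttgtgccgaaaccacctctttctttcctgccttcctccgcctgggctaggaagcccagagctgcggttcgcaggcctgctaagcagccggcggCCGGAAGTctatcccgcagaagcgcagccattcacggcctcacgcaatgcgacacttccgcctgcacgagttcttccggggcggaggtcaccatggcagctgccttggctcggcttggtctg
MRPL51 (chr12:6493213-6493512): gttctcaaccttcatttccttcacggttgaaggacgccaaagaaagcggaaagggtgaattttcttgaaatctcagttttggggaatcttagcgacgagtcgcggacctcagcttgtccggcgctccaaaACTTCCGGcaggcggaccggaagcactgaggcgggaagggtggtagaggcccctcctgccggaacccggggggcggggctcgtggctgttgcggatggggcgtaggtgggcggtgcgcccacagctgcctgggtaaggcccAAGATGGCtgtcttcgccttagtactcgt

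In MRPL16 the ETS letters lie on the opposite strand and begin 7 bases before the start. MRPL20 and MRPL51 hold both sets of letters, so a promoter with both was found at a gene that fell and at one that did not differ. Neither set of letters was found in the windows of MRPS33, MRPL12 and MRPS15. Promoters were matched for 66 of the 75 genes. The YY1 letters were in 20 of the 66 (30.3%), against 7.29% of the 8137 tested genes with a promoter and 2.89% of all promoters. The ETS letters were in 12 (18.2%), against 11.2% of tested genes with a promoter and 4.14% of all promoters. The palindromic NRF1 motif was in 1 of the 66, against 2.99% of tested genes. The letters CCAAT were in 22 (33.3%) against 43.9%. The letters TATAAA were in 3 against 7.91%. Each was searched on either strand. Among the members that fell in the comparison below, 8 of 38 with a promoter held the YY1 letters and 7 of 38 the ETS letters. Among members that did not pass, these were 10 of 26 and 5 of 26. A match of letters is a description and not a binding site.

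Across all 37 libraries, the mitochondrial ribosomal protein genes were lower in KO as a group, by a small amount. Of the 72 members that passed the filter on low counts, 40 fell (55.6%), 0 rose and 32 did not pass edgeR's quasi-likelihood test at an adjusted p below 0.05. By the same test 16.2% of all 10661 genes tested fell, 17.7% rose and 33.8% differed in either direction. Scaled by library size alone, 31 members fell and MRPL28 rose, while 2240 of all genes rose and 1322 fell in place of 1882 and 1724. Passed or not, 66 of the fold changes were negative and 6 positive. The median log2 fold change of members was -0.16, a level lower by 10.4%, beside -0.0046 for all genes tested. Only MRPL16 also passed the study's fold threshold of 0.5 on the log2 scale, which with the adjusted p held for 10.2% of all genes. MRPL28, the homolog of bacterial bL28, had the largest positive value. It was at 7.42, 7.52 and 7.84 log2 CPM in Control (lowest, median, highest) and at a median of 7.66 in KO, with 5 KO libraries above the highest Control library (log2 fold change 0.14 ± 0.06 SE, adjusted p = 0.0569). MRPL28 passed as higher in 6 of 17 alternative settings, the only member to do so.

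This group-wide difference was smaller in the deeper libraries. Among libraries of at least 3000000 UMIs, 7 of each group, 8 of 72 members fell (11.1%) beside 8.23% of all genes, the median was -0.06 and 49 fold changes were negative. Among the shallower libraries, 19 KO and 4 Control, 12 fell (16.7%) beside 3.58% of all genes, the median was -0.18 and 64 were negative. With total UMIs as a covariate over all libraries, 28 members fell beside 13% of all genes, with a median of -0.13. Each depth class holds fewer libraries than the whole. With every library thinned to the smallest total, 24 members fell beside 9.91% of all genes, with a median of -0.15. In AT-rich barcodes alone 21 fell beside 12.1%, with a median of -0.14. The split by depth and the covariate were added after the data were seen. The 6 KO libraries low on chromosomes 4 and 8, described below, were all in the shallower class. So were the KO libraries with GC-rich barcodes except GCTCGC, and those low around MRPL44 except TAATGA. Depth, barcode class and these regions thus cannot be told apart in the split, and what part each has in the difference was not tested.

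The same is seen in the summed level. All 75 members together held 1.24% of UMIs in the lowest Control library, 1.31% at the median and 1.40% in the highest, with a mean of 1.31 ± 0.05 (SD, n = 11). In KO they held 1.03%, 1.19% and 1.29%, with a mean of 1.18 ± 0.07 (SD, n = 26). The share was below the lowest Control library in 19 of 26 KO libraries, and the KO mean was lower by 9.68%. Control libraries had the same mean share in both depth classes, 1.31%. KO libraries of at least 3000000 UMIs had a mean of 1.25 ± 0.03 (SD, n = 7) and the shallower KO libraries 1.15 ± 0.06 (SD, n = 19). The KO mean was thus lower than Control by 4.23% in the deeper class and by 11.7% in the shallower class. Within AT-rich barcodes, 8 of 12 KO libraries were below the lowest of 8 Control libraries.

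The fall was spread over the classes of members. Of members whose protein sits in the large subunit 26 of 48 tested fell, with a median log2 fold change of -0.16, and of those in the small subunit 14 of 23, with a median of -0.20. By name alone these were 26 of 46 MRPL and 14 of 26 MRPS genes. Of homologs of bacterial ribosomal proteins 23 of 42 fell, and of mitochondria-specific proteins 17 of 29. Among the 24 most abundant members 15 fell, among the next 24 14, and among the least abundant 24 11. Reads at a 3′ end can be shared with an overlapping gene, and 24 members had a gene on the other strand and 10 one on the same strand in their last 1000 bases. Without either kind of neighbour 22 of 44 fell, and without a neighbour or an annotated pseudogene 12 of 25. KO libraries varied more than Control libraries, with a median SD over members of 0.17 against 0.13 on the log2 CPM scale, and the same order was found for all genes tested (0.27 against 0.21).

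**Figure D1:**
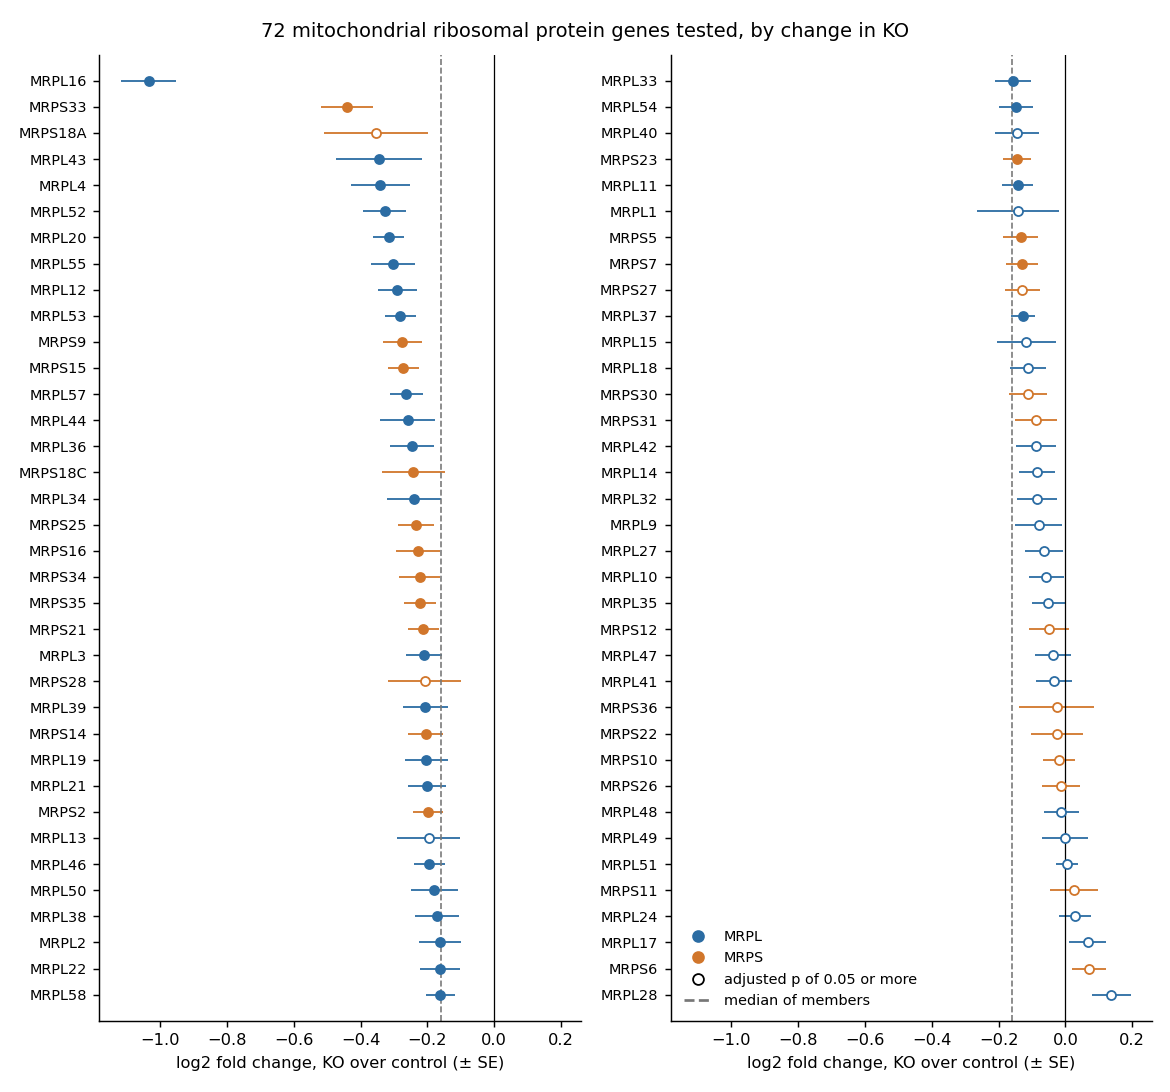
Log2 fold change of KO over Control with its SE for the 72 members tested, ordered from the largest fall, with colour for the named subunit and filled points for an adjusted p below 0.05. MRPL16 at -1.03 stands apart from the next member, MRPS33 at -0.44, and 66 of 72 points lie left of 0.

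MRPL16 had the largest difference of all members. It encodes the homolog of bacterial protein uL16, which sits in the large subunit near the tRNA binding sites. The gene (ENSG00000166902) has 4 exons and lies at chr11:59806140-59810778 on the minus strand (GRCh38). Its level was 8.45 log2 CPM in the lowest Control library, 8.75 at the median and 9.13 in the highest. In KO it was 7.37, 7.70 and 8.59. KO libraries lay below the lowest Control library in 25 of 26 cases, and the exception was GGCCAC at 8.59. The log2 fold change was -1.03 ± 0.08 SE (adjusted p = 1.48e-12), so that its level fell by 51.2%. Without GGCCAC it was -1.08 and the groups did not overlap, as was the case for 1.47% of all genes tested. With GGCCAC 0 members and 0.281% of all genes were without overlap.

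MRPL16 kept its difference within depth classes, at -0.94 (adjusted p = 7e-07) in the deeper and -1.14 in the shallower libraries by edgeR. It was -1.10 in AT-rich barcodes alone. Of 4 other tested genes near it, 3 did not pass. STX3, which encodes a membrane fusion protein and ends 258 bases away on the other strand, was at 0.20 ± 0.11 SE (adjusted p = 0.163). PATL1 was at -0.21 (adjusted p = 0.111) and OSBP at -0.05 (adjusted p = 0.463). MS4A3, a myeloid membrane protein gene 245809 bases away, was lower by 3.09 on the log2 scale (log2 fold change -3.09 ± 0.29 SE, adjusted p = 2.98e-10), and its 1 KO library above the lowest Control library was again GGCCAC, at 6.60 log2 CPM.

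Besides MRPL16, 5 members fell in all 17 alternative settings and in each of 37 fits that left out 1 library: MRPS33, MRPL20, MRPL12, MRPL53 and MRPS15. MRPS33, a gene with 3 annotated pseudogenes, encodes a mitochondria-specific protein of the small subunit. Its level was 7.48, 7.82 and 8.15 log2 CPM in Control (lowest, median, highest) and 6.75, 7.45 and 7.87 in KO. The log2 fold change was -0.44 ± 0.08 SE (adjusted p = 2.66e-05), and 13 of 26 KO libraries lay below the lowest Control library. In the deeper libraries alone it was -0.29 (adjusted p = 0.0354), and GGCCAC was again the highest KO library.

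MRPL20 encodes the homolog of bacterial bL20, a protein that binds the large ribosomal RNA. Control libraries had 8.17, 8.32 and 8.52 log2 CPM and KO libraries 7.67, 7.99 and 8.22. The ranges touched in only 2 KO libraries, with 24 of 26 below the lowest Control library. The log2 fold change was -0.32 ± 0.05 SE (adjusted p = 8.88e-07), and -0.22 (adjusted p = 0.0081) in the deeper libraries. An antisense gene, MRPL20-AS1, overlaps its 3′ end.

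MRPS15, the homolog of bacterial uS15, which binds the small ribosomal RNA, had the narrowest Control range of these genes. Control libraries were at 8.33, 8.35 and 8.46 log2 CPM and KO libraries at 7.80, 8.11 and 8.41. In KO 25 of 26 libraries were below the lowest Control library, and here GGCCAC (8.17) was among them and TAAGAT was the exception. The log2 fold change was -0.27 ± 0.05 SE (adjusted p = 1.41e-05), and -0.34 (adjusted p = 0.000405) in the deeper libraries.

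The flexible stalk of the large subunit, which recruits translation factors, is built from MRPL12 on the base protein MRPL10. MRPL12 was at 7.97, 8.23 and 8.31 log2 CPM in Control and at 7.33, 7.89 and 8.22 in KO, with a log2 fold change of -0.29 ± 0.06 SE (adjusted p = 0.000124). MRPL10 was at 6.13, 6.41 and 6.47 in Control and 6.02, 6.29 and 6.56 in KO, and did not pass (-0.06 ± 0.05 SE, adjusted p = 0.417). The difference between these fold changes was not tested. MRPL53, a mitochondria-specific protein of the large subunit, was at 6.80, 6.98 and 7.11 in Control and 6.25, 6.67 and 6.90 in KO. It was lower in KO (-0.28 ± 0.05 SE, adjusted p = 9.47e-06), with 22 of 26 KO libraries below the lowest Control library. CCDC142 on the same strand and a gene on the other strand overlap the 3′ end of MRPL53. A gene on the same strand overlaps that of MRPL12. Whether reads were shared with them was not tested.

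**Figure D2:**
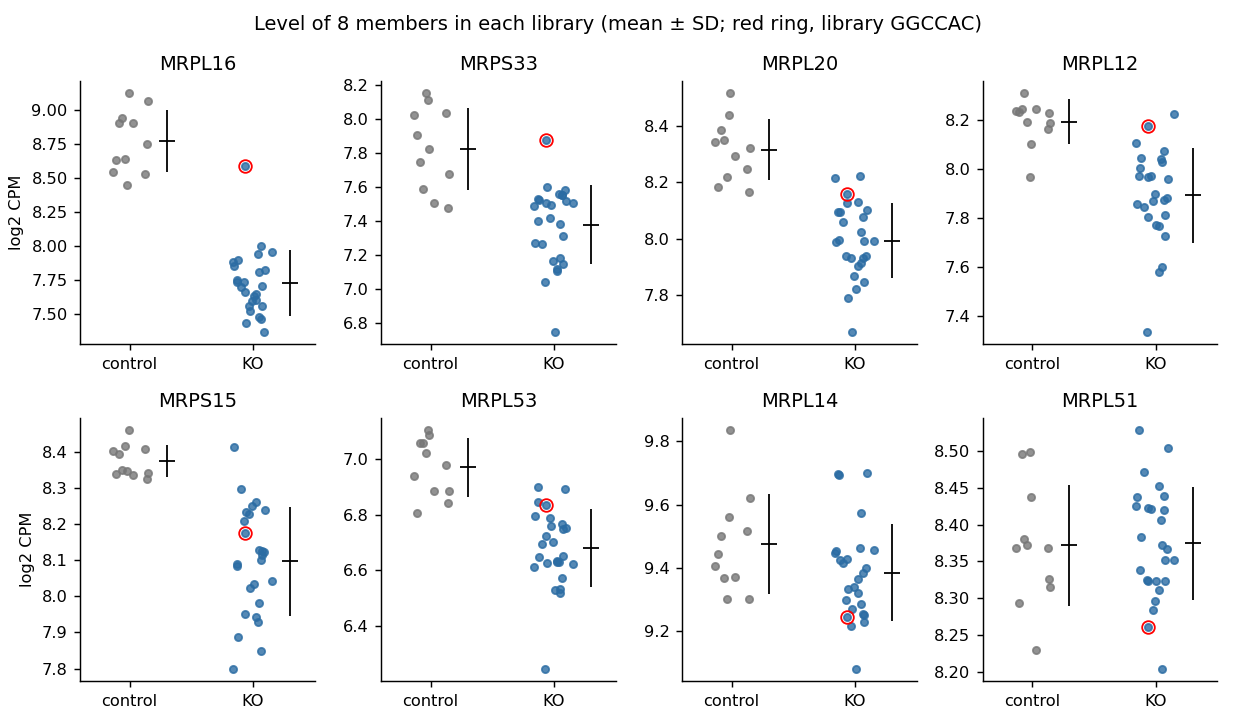
Log2 CPM in each of 11 Control and 26 KO libraries for 8 members, with the mean and SD beside the points and the library GGCCAC ringed. MRPL16 separates the groups except for GGCCAC at 8.59, MRPL20 and MRPS15 nearly separate them, and MRPL14 and MRPL51 do not. The vertical axes differ between panels.

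The other members among the 10 largest falls depended more on the libraries used. MRPL4, the homolog of bacterial uL4, was at 5.06, 5.25 and 5.61 log2 CPM in Control and 4.37, 4.95 and 5.32 in KO (-0.34 ± 0.09 SE, adjusted p = 0.00267). In the deeper libraries its log2 fold change was -0.02 (adjusted p = 0.891), and in the shallower -0.60 (adjusted p = 0.00622). The shallower class holds all KO libraries low on chromosomes 4 and 8, described below, where MRPL4 was -0.87 to -0.64 from the Control median. Shallower KO libraries outside this group were at 4.60 (GTTCGA) to 5.13 (CGTGGG) log2 CPM. The deeper KO libraries were at 4.95 (ATTCTA) to 5.32 (AAAACT). What part depth and this group of libraries each have in the difference was not tested. MRPL43, a mitochondria-specific protein, was at 5.59, 5.88 and 6.05 in Control and 4.28, 5.55 and 6.05 in KO. It had a log2 fold change of -0.35 ± 0.13 SE (adjusted p = 0.0343) and a wide KO spread, with an SD of 0.47 against 0.16 in Control. It passed in 9 of 17 alternative settings. MRPL52 (-0.33 ± 0.06 SE, adjusted p = 0.000114) and MRPS9, the homolog of bacterial uS9 (-0.27 ± 0.06 SE, adjusted p = 0.000336), each missed the threshold in 1 of the depth classes. MRPL55, the homolog of bacterial bL31 (-0.30 ± 0.07 SE, adjusted p = 0.000375), missed it in both.

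Of the 5 most abundant members, 3 fell by a small amount and 2 did not pass. MRPL14, the homolog of bacterial uL14 and the member with the highest level, was at 9.30, 9.44 and 9.84 log2 CPM in Control and at 9.08, 9.37 and 9.70 in KO (-0.09 ± 0.05 SE, adjusted p = 0.234). Its value was 0.10 in the deeper libraries and -0.22 in the shallower, and passed in neither. MRPL51, a mitochondria-specific protein of the large subunit, was at 8.23, 8.37 and 8.50 in Control and at 8.20, 8.37 and 8.53 in KO (0.0045 ± 0.03 SE, adjusted p = 0.946). The others fell: MRPS21, with 8 annotated pseudogenes that could share its reads (-0.21, adjusted p = 0.000503), MRPS23 (-0.14, adjusted p = 0.00649) and MRPL37 (-0.13, adjusted p = 0.0051). In the deeper libraries none of these 3 passed.

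Of the least abundant members, MRPL44 and MRPL4 fell, while MRPS18A, MRPS36 and MRPS11 did not pass. MRPS18A had 2 to 34 UMIs in the KO libraries and 5 to 56 in Control, and its value of -0.35 ± 0.16 SE had an adjusted p of 0.0749. MRPS36 was at -0.03 ± 0.11 SE and MRPS11, the homolog of bacterial uS11, at 0.02 ± 0.07 SE. Below the count filter were MRPS18B, with at most 12 UMIs in a library, MRPL23 with at most 10 and MRPL45 with at most 9. Differences in them were not tested, and why so few UMIs were counted for them was not examined.

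The 3 MRPS18 paralogs take different places, MRPS18C in the small subunit where bacterial bS18 sits, MRPS18B elsewhere in the small subunit and MRPS18A in the large subunit. In the classes above only MRPS18C was counted as a bacterial homolog, by its place. Their levels by UMI count were far apart. MRPS18C was at 6.57, 6.81 and 7.20 log2 CPM in Control and at 6.07, 6.61 and 7.13 in KO (-0.24 ± 0.09 SE, adjusted p = 0.0411), passing in 6 of 17 alternative settings. MRPS18A was at 2.15, 3.13 and 3.70 in Control, and MRPS18B was not tested. MRPS30, also named for the small subunit but placed in the large one, was at -0.11 ± 0.06 SE (adjusted p = 0.118).

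Some KO libraries were low for the genes of whole regions, members included. In 6 KO libraries, 5 of them with AT-rich barcodes, the median over 384 genes of chromosome 4 was -0.49 to -0.43 from the Control median on the log2 scale, and that of 357 genes of chromosome 8 was -0.50 to -0.44. In the other 31 libraries these medians were -0.05 to 0.08 and -0.06 to 0.04. Members there are MRPL1 and MRPS18C on chromosome 4 and MRPL13, MRPL15 and MRPS28 on chromosome 8. For MRPL1, MRPL13, MRPL15 and MRPS28 the 6 lowest KO libraries were exactly these 6, and for MRPS18C 5 of the 6 lowest were. Some members on other chromosomes were also low in these libraries. For MRPL43 on chromosome 10 and for MRPL4 and MRPL34 on chromosome 19, 5 of the 6 lowest KO libraries were among them. Other members were high there. For MRPL28 on chromosome 16 the 6 highest KO libraries were exactly these 6. For MRPS36 on chromosome 5 the 4 highest KO libraries were all among them. MRPL43 was at -1.60 to -0.70 from the Control median in these 6 libraries and at -0.99 to 0.17 in the other KO libraries.

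MRPL15 showed it most plainly: it was -0.78 to -0.61 from the Control median in these 6 libraries and -0.18 to 0.18 in the other KO libraries. MRPS28 was at -1.41 to -0.78 in the 6 and at -0.67 to 0.18 in the others. Without the 6 libraries the log2 fold change of MRPL15 was 0.013 in place of -0.12 and that of MRPL1 0.0098 in place of -0.14, neither passing in any setting. Another 5 KO libraries were low around MRPL44 on chromosome 2, where 75 genes within 10 Mb had medians of -0.35 to -0.29 against -0.05 to 0.16 in the other 32 libraries. MRPL44, at -0.95 to -0.60 in these 5, had its 5 lowest KO libraries there. Leaving out all 11 libraries moved MRPL44 from -0.26 (adjusted p = 0.0138) to -0.13 (adjusted p = 0.0817), with 25 members lower beside 13% of all genes. Chromosome copies were not measured. These groups of libraries were defined after the data were seen. Off chromosomes 4 and 8, 39 of 67 tested members fell, and without the 6 libraries 32 of 72 fell beside 14.4% of all genes.

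The library GGCCAC was below the lowest Control library for 30 of 72 members and for 18 of the 40 that fell. Over the KO libraries the number of members below ran from 5 in TTATTG to 55 in CCCACG. The median member of GGCCAC was -0.16 from the Control median, and the median of KO libraries was also -0.16. For the members as a group GGCCAC thus lay in the middle of the KO libraries. It stood with Control for MRPL16 and not for members such as MRPS15. For 23 members at least 13 of 26 KO libraries were below the lowest Control library, which held for 10.1% of all genes tested. Without GGCCAC 39 members fell, beside 16.9% of all genes.

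Other proteins of the mitochondrial ribosome with names outside the MRPL and MRPS series were DAP3, PTCD3, AURKAIP1, CHCHD1 and GADD45GIP1, of which 2 of 5 fell: GADD45GIP1 (-0.28 ± 0.09 SE, adjusted p = 0.0206) and AURKAIP1 (-0.16 ± 0.05 SE, adjusted p = 0.0152). Of genes that assemble the ribosome, 12 of 21 tested fell, with a median log2 fold change of -0.16. Both shares stand beside the 16.2% of all genes that fell. TFB1M, the enzyme that methylates the RNA of the small subunit, was at 5.36, 5.58 and 6.26 log2 CPM in Control and at 4.62, 5.01 and 5.34 in KO. All 26 KO libraries were thus narrowly below every Control library (-0.67 ± 0.07 SE, adjusted p = 2.92e-09). Groups without overlap, in either direction, were found for 0.281% of all genes tested. MTG2, a GTPase that acts on the large subunit, was at -0.38 (adjusted p = 0.00214). RPUSD4, a pseudouridine synthase of mitochondrial RNA, was at -0.23 (adjusted p = 0.00429). The others that fell were FASTKD2, MALSU1, NOA1, DHX30, GTPBP10, ERAL1, MRM2, MRM3 and RPUSD3.

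Translation factors fell in 5 of 11 cases, with a median of -0.09. The initiation factor MTIF2 was at -0.31 (adjusted p = 1.38e-05), the release factors MTRF1 at -0.35 (adjusted p = 0.0118) and MTRFR at -0.32 (adjusted p = 4.45e-06), the recycling factor MRRF at -0.20 (adjusted p = 0.032) and the elongation factor TUFM at -0.16 (adjusted p = 0.00703). Enzymes that charge mitochondrial tRNAs fell in 5 of 20 cases, with a median of -0.07, led by NARS2 for asparagine at -0.30 (adjusted p = 0.000688). KARS1, which charges lysine tRNAs in both cytosol and mitochondria, was at -0.20 (adjusted p = 1.71e-05). SARS2, YARS2 and FARS2 were at -0.23, -0.22 and -0.18 with adjusted p of 0.0185, 0.0213 and 0.0391. These shares stand beside the 16.2% of all genes that fell.

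Of 11 tested mRNAs from mitochondrial DNA 4 fell and 2 rose (36.4% and 18.2%), beside 16.2% and 17.7% of all genes. MT-ND5 (-0.66 ± 0.19 SE, adjusted p = 0.00569), MT-ND3 (-0.47, adjusted p = 0.003), MT-CYB (-0.31, adjusted p = 0.0186) and MT-ND6 (-0.27, adjusted p = 0.0487) were lower, and MT-CO1 (0.34 ± 0.13 SE, adjusted p = 0.038) and MT-ATP6 (0.25 ± 0.07 SE, adjusted p = 0.00665) were higher. MT-RNR1, the RNA of the small subunit, was at -0.38 (adjusted p = 0.046), and the other ribosomal RNA did not pass. Of 12 tested regulators of mitochondrial gene expression 4 fell (33.3%, beside 16.2% of all genes): GABPB2, a partner of GABPA (-0.63, adjusted p = 0.00182), the growth regulator MYC (-0.50, adjusted p = 0.00188), POLRMT, the mitochondrial RNA polymerase (-0.22, adjusted p = 0.00408), and TFAM, which packs mitochondrial DNA (-0.18, adjusted p = 0.0274).

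Other large families of nuclear genes were lower in like shares, and no difference between the families was tested. Of 79 tested cytosolic ribosomal protein genes 44 fell and 0 rose, with a median of -0.12. Of 72 nuclear genes for subunits of oxidative phosphorylation 39 fell and 0 rose, with a median of -0.15. In the libraries of at least 3000000 UMIs these were 5 of 79 (median -0.08) and 12 of 72 (median -0.08), beside 8 of 72 mitochondrial ribosomal protein genes (median -0.06) and 8.23% of all genes. In the shallower libraries they were 7 of 79 (median -0.12) and 14 of 72 (median -0.15), beside 12 of 72 (median -0.18) and 3.58% of all genes.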

How the data were processed

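SCRB-seq measured RNA in 26 KO and 11 Control libraries of K562 cells. Reads were mapped by the authors with STAR 2.6.0a (submitters' processing notes) to hg38. They deposited UMI counts of 32055 genes from zUMIs with Ensembl release 84, not normalized; use of strand in counting is not given in the sources used here. Counts remove PCR copies, so that low counts carry the error of few molecules. Symbols and positions came from GENCODE 44, which paired 31323 identifiers.

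The quasi-likelihood test of edgeR 4.0.16 (R 4.3.3) compared the groups without covariates, after filterByExpr and TMM scaling, with Benjamini-Hochberg adjustment over all genes tested. Levels are log2 CPM with a prior count of 2. The SE was taken as |log2 fold change| over the root of the F statistic. Scripts were tested on simulated counts. The common dispersion gave a biological coefficient of variation of 0.154. Named are the 10 members with the largest significant falls and rises, the 5 most and least abundant, members without overlap, those under the filter, the stalk, MRPS18 and displaced members, and called genes of the translation lists. MRPS15, MRPL28, MRPL34, MRPL1, MRPL13, MRPL15, MRPS28, the neighbours of MRPL16 and the depth classes were singled out after their values were seen. The members and lists were chosen with earlier results of these data known. Alternatives were limma-voom (limma 3.58.1) without and with quality weights, DESeq2 1.42.0, other scalings, filters, covariates, libraries and depths. Promoters came from RefSeq.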

Additional observations from a re-analysis of the deposited data

How the results depend on the processing

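The median log2 fold change of members stayed negative in all 17 alternative settings (-0.18 to -0.06) and in 37 fits leaving out 1 library (-0.16 to -0.14), but the number of calls did not hold. The 40 members that fell became 21 in AT-rich barcodes alone, 24 with every library thinned to the smallest total, 25 without the 11 KO libraries low in a region, 8 in libraries of at least 3000000 UMIs and 12 in shallower libraries, settings with fewer libraries or counts. Leaving out 1 library gave 31 to 41, with 31 when the Control library AAAGTT was left out. The 3606 genes that differed became 1627 after thinning, 1958 in the deeper and 911 in the shallower libraries, and 3245 to 3726 with 1 library left out. The number of members higher was 1 in place of 0, MRPL28 in each case, with quality weights, DESeq2, library size alone, barcode class as a covariate, genes averaging 10 CPM or more and without the shallowest library, and 0 to 1 with 1 library left out. The summed share differed by -0.126 percentage points and by -0.0552 in the deeper libraries. In the deeper libraries 49 of 72 fold changes were negative, against 66 over all libraries. Of the members named in the report, signs turned for some that did not pass: MRPS36 (0.0064 with library size alone, 0.040 with barcode class, 0.21 thinned, 0.25 in shallower libraries), MRPL51 (-0.0065 without a filter), MRPL1 (0.0098 without the 6 and 0.013 without the 11 KO libraries, 0.14 in the deeper), MRPL15 (0.013, 0.026 and 0.018 likewise), and in the deeper libraries MRPS11 (-0.017), MRPL14 (0.10), MRPL13 (0.025) and MRPS28 (0.028). The cause was not tested. Settings on regions and on the depth classes were chosen after seeing the data. No paired analysis was possible because the labels carry no replicate numbers.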
